A study of Mus musculus with 6 samples.

Results

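The genes described here make L-serine from glucose or convert it onward: Phgdh, Psat1, Psph, Shmt1, Shmt2 and Srr. They are 6 of the 18193 genes that the platform annotation names by a single symbol on the array, and they were followed through every probe set that carries 1 of these symbols, 21 in all. The genes were selected on measured values of these same arrays, namely the difference between the replicate 3 arrays and the others and the difference between treatments. Both contrasts are therefore given as descriptions of the members, with no test.

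Ribosome-bound RNA of S100a10-expressing cells was purified from the cortex of mice by translating ribosome affinity purification (TRAP), in which a tagged ribosomal protein is expressed from an S100a10 bacterial artificial chromosome (line ES691). All mice also carried the constitutive knockout of p11, the protein that S100a10 encodes, on a background backcrossed for 3 to 5 generations from FVB to C57BL/6. For 15 to 18 days 1 group drank fluoxetine, a selective serotonin reuptake inhibitor, at 0.167 mg/ml in 1% saccharin (FLX), and the control group drank 1% saccharin (VEH). Each group has 3 arrays labelled as biological replicates 1 to 3, and neither the age of the mice nor the number pooled per array is given in the sources used here. The submitters state that the transgene labels some non-neuronal cells, which bears on genes that glia use strongly. No wild-type array was analysed here, so every value below comes from cells of p11-deficient mice.

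L-serine is built from the glycolytic intermediate 3-phosphoglycerate. Phosphoglycerate dehydrogenase (Phgdh) oxidises it, phosphoserine aminotransferase (Psat1) adds an amino group taken from glutamate, and phosphoserine phosphatase (Psph) removes the phosphate. Serine hydroxymethyltransferases, Shmt1 in the cytosol and Shmt2 in mitochondria, then turn serine into glycine and pass a carbon unit to folate, while serine racemase (Srr) makes D-serine, a co-agonist of NMDA receptors. In the brain the synthesis enzymes are known mainly from astrocytes and radial glia, and Srr is known mainly from neurons.

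The 250 bases before an annotated start of the 3 synthesis enzymes are printed because those enzymes act in one chain, although Psph did not follow Phgdh and Psat1 across the arrays. Shmt2 is added as a member with a moderate difference. The sequences are RefSeq's for build GRCm38.p6, on the minus strand, 5′ to 3′, at chr3:98339970-98340219 for Phgdh, chr19:15925060-15925309 for Psat1, chr5:129787254-129787503 for Psph and chr10:127522445-127522694 for Shmt2. Capitals mark the CCAAT box, the element bound by NF-Y, in either orientation (CCAAT or ATTGG).
Phgdh: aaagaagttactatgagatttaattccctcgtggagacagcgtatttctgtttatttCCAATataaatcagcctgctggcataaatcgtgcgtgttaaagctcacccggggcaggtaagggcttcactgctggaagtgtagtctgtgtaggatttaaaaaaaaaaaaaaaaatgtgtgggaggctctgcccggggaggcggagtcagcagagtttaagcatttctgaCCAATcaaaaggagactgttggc
Psat1: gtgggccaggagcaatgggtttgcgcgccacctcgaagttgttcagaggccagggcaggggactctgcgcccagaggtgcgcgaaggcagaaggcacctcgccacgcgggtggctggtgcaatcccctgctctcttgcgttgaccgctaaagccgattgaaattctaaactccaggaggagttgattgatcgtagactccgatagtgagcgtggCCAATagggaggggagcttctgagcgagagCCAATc
Psph: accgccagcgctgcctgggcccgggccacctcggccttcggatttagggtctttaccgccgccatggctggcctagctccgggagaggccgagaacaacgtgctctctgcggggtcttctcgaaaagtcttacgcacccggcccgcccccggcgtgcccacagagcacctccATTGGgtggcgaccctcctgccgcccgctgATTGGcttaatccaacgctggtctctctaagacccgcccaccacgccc
Shmt2: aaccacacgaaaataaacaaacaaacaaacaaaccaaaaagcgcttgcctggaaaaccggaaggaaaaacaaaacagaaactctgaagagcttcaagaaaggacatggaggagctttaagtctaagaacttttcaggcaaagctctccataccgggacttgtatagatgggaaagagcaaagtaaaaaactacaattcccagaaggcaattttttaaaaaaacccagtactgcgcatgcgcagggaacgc

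All 6 genes had an entry among the RefSeq promoters, and Psat1 had 2 of them, of which the outer is shown. The windows of Phgdh, Psat1 and Psph each held 2 CCAAT boxes. The window of Shmt1 held 1, and those of Shmt2, Srr and the inner Psat1 start held 0. Of 32851 promoter windows of the same length, 33.8% held at least 1 CCAAT box and 10.1% held 2 or more. The core of the element bound by ATF4, the regulator of the amino acid response that is known to act on several of these genes (TGATGNAA or TTNCATCA), was in 0 of the 7 windows and in 3.45% of all windows. The windows leave out transcribed and more distant sequence, and these letters say nothing on whether a factor was bound.

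Of the 21 member probe sets, 16 reached a mean of 50 in at least 1 group, the level the submitters advise, and entered the fit of 22200 probe sets in all. A probe set is called tested below where it passed this level; for the members the word means no more than that. Every member kept at least 1 tested probe set. Phgdh had 4 tested of 4, Psat1 2 of 2, Psph 1 of 1, Shmt1 1 of 4, Shmt2 3 of 4 and Srr 5 of 6. The member probe set nearest below that level, Shmt1 1425179_at, had a group mean of up to 35.9, and the nearest above it, Shmt2 1426423_at, had one of 105. Another 2 probe sets name Phgdh together with a second gene and were not used. Among the 21, 8 end in _x_at and 2 in _s_at, types that can match several transcripts, and this holds for every single-symbol Phgdh probe set.

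Array medians lay between 38.6 and 42.0, and each group has only 3 arrays, which limits the precision. In both groups replicate 3 differed most from the remaining arrays: across tested probe sets the replicate 3 arrays correlated with the other 4 at r = 0.867 to 0.916, against 0.987 to 0.995 among those 4 and 0.973 between the replicate 3 arrays themselves. In FLX as in VEH, replicate 3 was therefore set against replicates 1 and 2 of its own group, a division chosen because of this separation. The brightest S100a10 probe set, 1456642_x_at, ran from 349 to 2222 in FLX and from 643 to 3111 in VEH, lowest on replicate 3 of each group. The remaining S100a10 probe sets stayed below 50 on every array, 1416762_at between 34.0 and 49.4 and 1439348_at between 4.98 and 8.22. No source used here says which of them lie inside the deletion, so they check nothing. Of the layer 5 pyramidal neuron markers, the cells the study set out to profile, 5 of the 6 that the array names were detected (Bcl11b, Fezf2, Crym, Pcp4 and Parm1, but not Colgalt2). With bulk RNA of this kind, fewer cells of a type and less RNA per cell cannot be told apart.

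Phgdh and Psat1, the first enzymes of the serine chain, read 2.47 to 27.1 times as high on the replicate 3 array as on replicates 1 and 2 in both treatments and on each of their 6 probe sets. Psph, which completes the chain, was higher on replicate 3 in FLX alone. Shmt2 and Srr stood moderately higher in both groups on most probe sets. Between FLX and VEH the differences were positive on 8 and negative on 8 of the 16 tested probe sets. Over all tested probe sets 57.2% were positive.

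**Figure D1:**
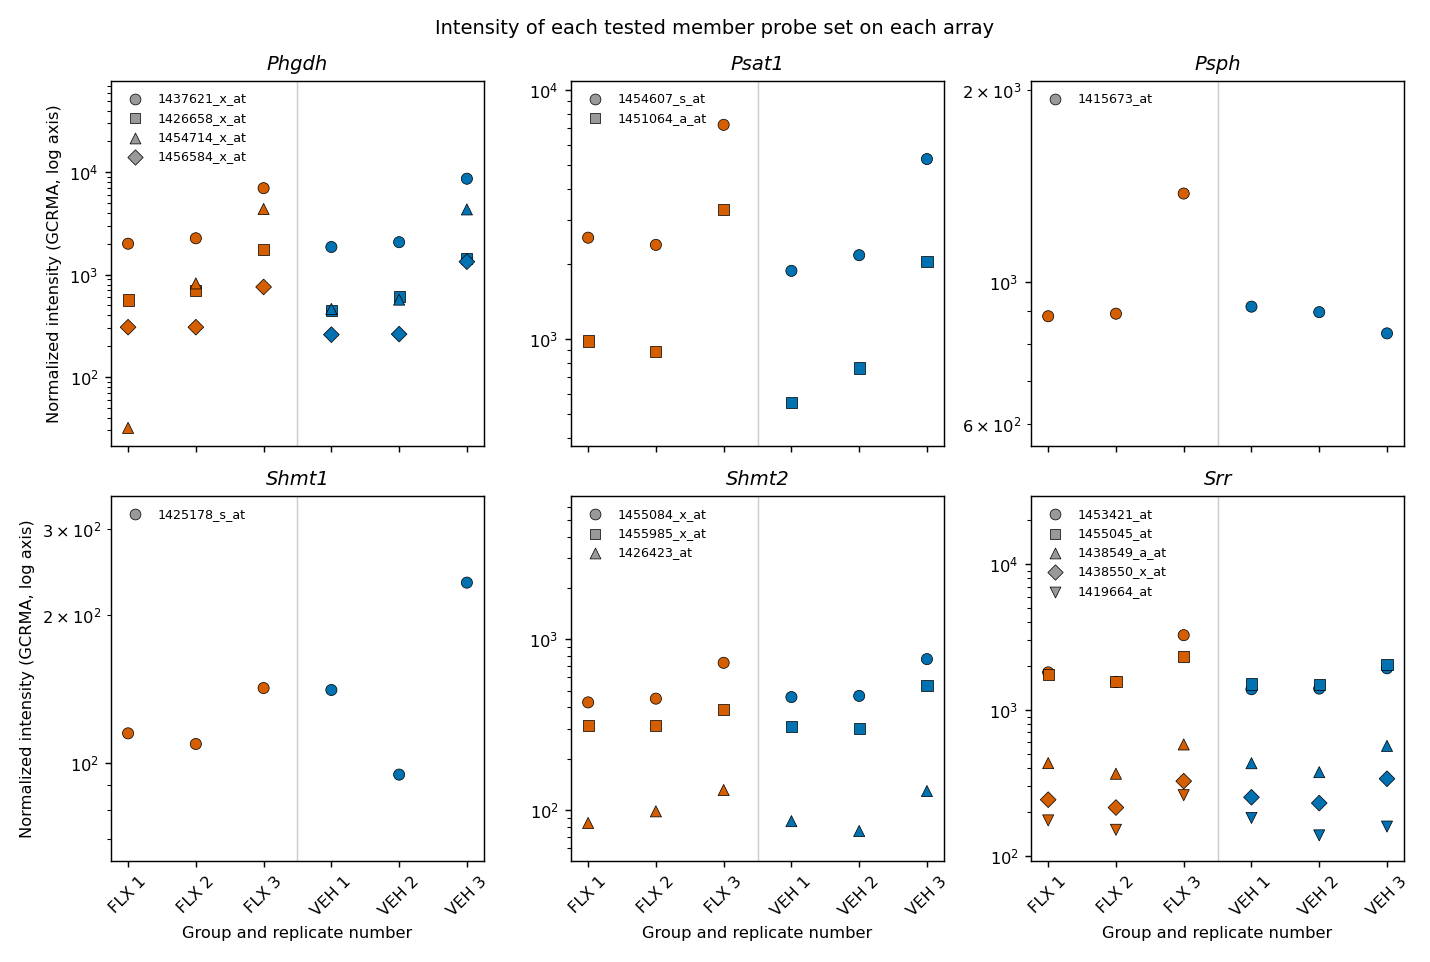
Normalized intensity on a log axis for each of the 16 tested member probe sets, 1 panel per gene, on the FLX arrays (orange) and VEH arrays (blue) with replicate numbers 1 to 3; marker shapes stand for probe sets. The replicate 3 points of Phgdh and Psat1 lie above the other points of the same probe set and group, while Psph on VEH replicate 3 (832) lies below 916 and 898.

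Phgdh catalyses the first committed step of the chain. Its brightest probe set, 1437621_x_at, read (replicates 1, 2, 3) 2002, 2262 and 6982 with fluoxetine and 1859, 2073 and 8637 with vehicle. All triplets of values below keep this order. Replicate 3 was the highest array in each group, by 3.28-fold in FLX and 4.40-fold in VEH over the mean log2 value of replicates 1 and 2. Probe set 1426658_x_at read 564, 704 and 1773 in FLX and 449, 610 and 1447 in VEH, a replicate 3 difference of 2.81-fold and 2.76-fold. On 1456584_x_at the values were 306, 306 and 757 in FLX and 259, 262 and 1336 in VEH, so that the difference was larger in VEH (5.13-fold) than in FLX (2.47-fold). On these 3 probe sets replicate 3 was the highest array throughout, but the size of its difference varied.

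The remaining Phgdh probe set, 1454714_x_at, behaved differently on 1 array. It read 31.8 in FLX replicate 1, against 820 in FLX replicate 2 and 462 and 570 in VEH replicates 1 and 2, and it read 4373 and 4332 on the replicate 3 arrays. The 27.1-fold replicate 3 difference it gave in FLX rests on that low array; measured against FLX replicate 2 alone the log2 difference was 2.41 in place of 4.76. No other Phgdh probe set was low on FLX replicate 1.

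Psat1 catalyses the step after Phgdh. Its brighter probe set, 1454607_s_at, read 2547, 2383 and 7239 in FLX and 1874, 2167 and 5274 in VEH. The other, 1451064_a_at, read 979, 888 and 3297 in FLX and 556, 762 and 2045 in VEH. Replicate 3 was 2.94-fold and 2.62-fold above the others on the brighter probe set, in FLX and VEH, and 3.54-fold and 3.14-fold on the dimmer. The probe sets agreed in the order of all 6 arrays except that VEH replicates 1 and 2 lay further apart on the dimmer one.

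Psph, the phosphatase that releases serine, was read by 1 probe set, 1415673_at. It gave 885, 893 and 1376 in FLX and 916, 898 and 832 in VEH. The 5 arrays other than FLX replicate 3 lay close together, and replicate 3 was 1.55-fold above the others in FLX and slightly below them in VEH (a log2 difference of -0.12, which turned to 0.10 when the arrays were scaled to a common median). Its pattern was thus unlike that of the enzymes that precede it, which the root mean square difference of centred log2 values over the 6 arrays also shows: it was 0.85 between Psph and Phgdh and 0.60 between Psph and Psat1, against 0.33 between Phgdh and Psat1.

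The serine hydroxymethyltransferases differed in how well the array read them. Shmt1, the cytosolic form, had 1 tested probe set, 1425178_s_at, with 115, 109 and 142 in FLX and 141, 94.6 and 233 in VEH. Replicate 3 was the highest array of each group, but FLX replicate 3 was nearly equal to VEH replicate 1, and VEH replicates 1 and 2 differed by 0.57 on the log2 scale. The 3 untested Shmt1 probe sets read between 8.04 and 66.6 on all arrays. Shmt2, the mitochondrial form, read 428, 450 and 729 in FLX and 459, 467 and 767 in VEH on 1455084_x_at, a replicate 3 difference of 1.66-fold and 1.65-fold. Its other tested probe sets gave 1.23-fold and 1.75-fold (1455985_x_at) and 1.44-fold and 1.60-fold (1426423_at).

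Srr, which uses serine to make D-serine, was covered by 6 probe sets, of which 5 were tested. The brightest, 1453421_at, read 1810, 1553 and 3259 in FLX and 1386, 1400 and 1930 in VEH, a replicate 3 difference of 1.94-fold and 1.39-fold. On 1455045_at the values were 1740, 1569 and 2329 in FLX and 1507, 1491 and 2052 in VEH, a difference of 1.41-fold and 1.37-fold. Probe sets 1438549_a_at and 1438550_x_at gave log2 differences of 0.49 to 0.55 in both groups. On 1419664_at FLX replicate 3 was 1.60-fold above the others, whereas VEH replicate 3 (158) lay between VEH replicates 1 (181) and 2 (138). The untested 1458393_at stayed between 25.0 and 42.6.

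Counted over the 16 tested member probe sets, replicate 3 was above both other arrays in both groups on 14, the exceptions being Psph and Srr 1419664_at. At least 2-fold in both groups it was higher on 6, which are the Phgdh and Psat1 probe sets, and lower on 0. Over all tested probe sets 5.65% were at least 2-fold higher in both groups and 14.7% at least 2-fold lower. The median replicate 3 difference of the members on the log2 scale was 0.71 in FLX and 0.77 in VEH, beside 0.10 and -0.03 over all tested probe sets. Since the members were chosen on this contrast, the counts describe them and support nothing. Scaling the arrays to a common median raised the VEH replicate 3 differences by 0.22 and the FLX ones by 0.07, and the count of 6 held.

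The comparison of FLX with VEH asks what fluoxetine does to the translated RNA of these cells when p11 is missing. Phgdh 1437621_x_at averaged 3749 ± 2803 with fluoxetine and 4190 ± 3853 with vehicle (SD, n = 3), a log2 difference of -0.02 with a standard error of 0.76. Psat1 1454607_s_at had 4056 ± 2757 and 3105 ± 1884, a log2 difference of 0.35 (SE 0.59), and on 1451064_a_at the difference was 0.58 (SE 0.69). Psph had 1051 ± 282 and 882 ± 44.3, a difference of 0.22 (SE 0.24). For these genes the standard error over unpaired arrays, which the replicate 3 arrays widen, was larger than the difference between the groups. With the replicate number as a block the standard error was smaller. It was 0.16 and 0.18 for the Psat1 probe sets in the order above, 0.17 for Phgdh 1437621_x_at and 0.20 for Psph. As the members were chosen on this contrast, nothing is read from the size of a difference against its standard error.

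Shmt1 1425178_s_at averaged 122 ± 17.5 with fluoxetine and 156 ± 70.4 with vehicle, a log2 difference of -0.27 (SE 0.36). Shmt2 1455084_x_at had 536 ± 168 and 564 ± 175, a difference of -0.08 (SE 0.33). Srr 1453421_at had the largest difference among the Srr probe sets, with 2207 ± 920 and 1572 ± 310, or 0.43 (SE 0.34), while 1438549_a_at differed by less than 0.01 (458 ± 110 and 457 ± 99.0). On 0 of the 16 probe sets were the FLX and VEH values free of overlap. Over all tested probe sets 2.55% had every FLX value above every VEH value and 1.79% had every one below.

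**Figure D2:**
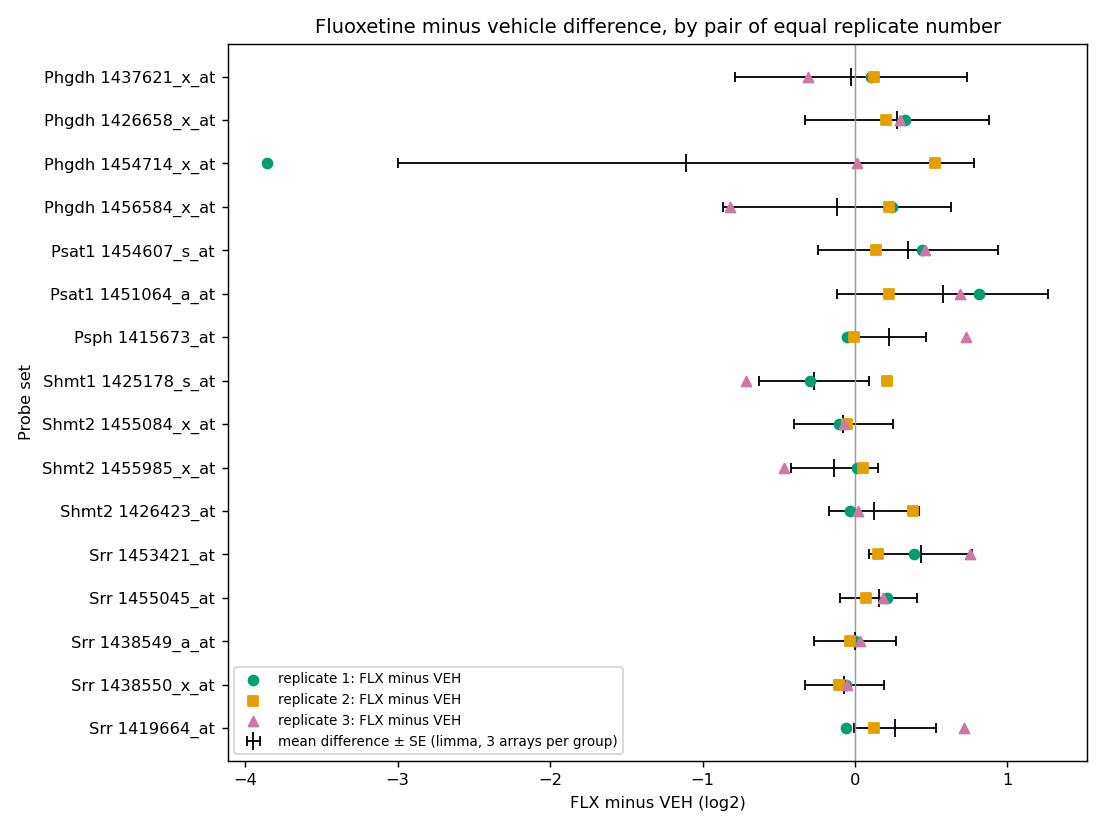
FLX minus VEH log2 difference of the 16 tested member probe sets, for each pair of arrays with equal replicate number (coloured points) and as the mean difference with its standard error (black, 3 arrays per group). Psat1 and Srr 1453421_at lie above 0 in all 3 pairs, and Phgdh 1454714_x_at is pulled to -3.86 in pair 1 by FLX replicate 1.

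Set in pairs of equal replicate number, Psat1 was higher in FLX in all 3 pairs on both probe sets, by 0.44, 0.14 and 0.46 (log2, pairs 1 to 3) on the brighter and by 0.82, 0.22 and 0.69 on the dimmer. Srr 1453421_at was higher by 0.38, 0.15 and 0.76, and Srr 1455045_at by 0.21, 0.07 and 0.18. Phgdh 1426658_x_at was higher by 0.33, 0.21 and 0.29. The brightest Phgdh probe set was not, since it was 0.11 and 0.13 higher in pairs 1 and 2 and 0.31 lower on the log2 scale in pair 3 (-0.31). Psph differed by -0.05, -0.01 and 0.73, so its mean difference came from the replicate 3 pair.

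In all, 5 of the 16 member probe sets were higher in FLX in every pair and 2 were lower in every pair (Shmt2 1455084_x_at and Srr 1438550_x_at), beside 19.6% and 13.6% of all tested probe sets. As the treatment difference helped to choose the members, nothing is read from these counts. Over all 22200 probe sets, 0.0% passed an adjusted p of 0.05 in limma with Benjamini-Hochberg adjustment, and 83 had an unadjusted p under 0.05. With the replicate number as a block 0 passed after adjustment and 1764 had an unadjusted p under 0.05. The median difference of the members was 0.06, against 0.04 over all tested probe sets. Of 15 astrocyte markers 11 were higher in FLX and 4 lower, with a median log2 difference of 0.26. Over all tested probe sets 57.2% were higher in FLX. The largest positive differences were those of Gfap (1.50, SE 0.81, pairs 1.77, 1.22 and 1.50) and Aqp4, the astrocyte water channel (1.12, SE 0.53, pairs 0.83, 0.59 and 1.94). The lower markers were Gjb6 (-0.28), Gja1 (-0.04), Slc1a3 (-0.01) and S100b (-0.004). No astrocyte marker passed limma's adjusted threshold, and the part of astrocyte RNA in the member differences was not tested.

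Leaving out 1 replicate 3 array turned many member differences. Such a fit is unbalanced. Most members read higher on replicate 3 in both groups, so dropping that array from 1 group shifts the difference by itself. Without FLX replicate 3 the log2 difference of Phgdh 1437621_x_at was -0.60 and without VEH replicate 3 it was 0.69. For Psat1 1454607_s_at these values were -0.17 and 0.81. Without both replicate 3 arrays they were 0.12 for Phgdh and 0.29 for Psat1. Phgdh 1454714_x_at went from -1.11 with all arrays to 0.86 without FLX replicate 1. Only Srr 1453421_at and Srr 1419664_at kept the sign of their difference under every one of the 12 alternatives computed, at 0.11 to 0.65 and 0.03 to 0.43. Each Psat1 probe set changed sign in 1 of the 12, the fit without FLX replicate 3. Not all of the 12 could turn a sign. The replicate block, the fit with no filter and the robust fit leave the estimate itself unchanged. Scaling to a common median shifted every difference by the same -0.02. In pair 1 Srr 1419664_at was lower in FLX (-0.06).

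The other genes that feed, use or regulate serine were taken from 8 lists. The lists were drawn up with earlier results of these data known. Of their 63 tested genes, 0 passed the adjusted threshold for FLX against VEH in limma in either direction, with or without the replicate block, and 1 had an unadjusted p under 0.05. The differences were positive for 40 and negative for 23, beside 57.2% positive over all tested probe sets. The list medians of the treatment difference ran from -0.28 to 0.34 on the log2 scale, and those of the replicate 3 difference from -1.90 to 1.32.

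**Figure D3:**
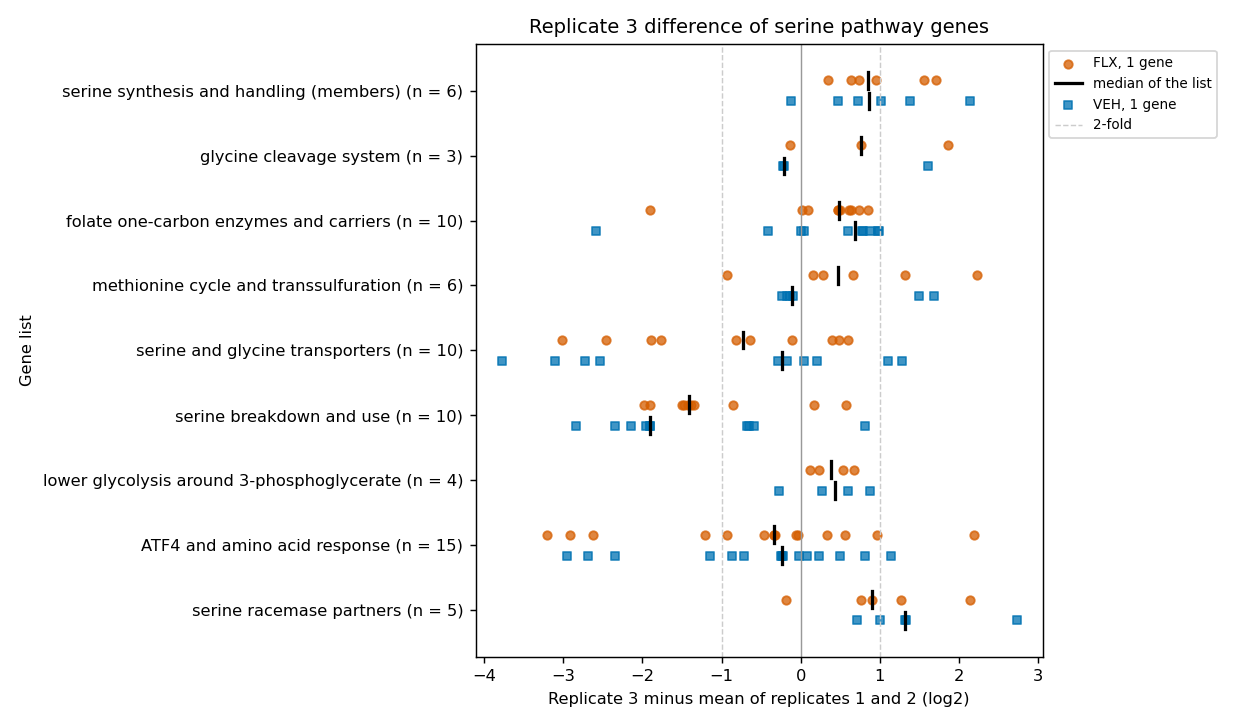
Replicate 3 minus the mean of replicates 1 and 2 on the log2 scale for each tested gene of the serine pathway lists, by its brightest probe set, in FLX (orange circles) and VEH (blue squares); black bars are list medians and dashed lines mark 2-fold. The 6 members centre on 0.85 in FLX and 0.87 in VEH, whereas the list of serine breakdown and use, whose tested genes are mostly those of lipid synthesis and the Serinc family, centres on -1.41 and -1.90.

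The glycine cleavage system splits glycine in mitochondria and feeds the same folate pool as Shmt2. Gldc, its glycine decarboxylase, read 177, 235 and 742 in FLX and 135, 135 and 414 in VEH, so that replicate 3 was 3.64-fold and 3.06-fold higher. Dld, the dihydrolipoamide dehydrogenase subunit shared with other complexes, had replicate 3 log2 differences of 0.76 in FLX and -0.21 in VEH, the latter at 0.01 after scaling to a common median. Between treatments Gldc differed by 0.68 (SE 0.69) and Dld by 0.34 (SE 0.28) on the log2 scale. Of the 3 tested genes 1 was at least 2-fold higher in replicate 3 in both groups and 0 were at least 2-fold lower. Over all tested probe sets these shares were 5.65% and 14.7%. Gcsh, the remaining tested gene, was slightly lower in both groups (-0.14 and -0.22, log2, FLX and VEH). After scaling to a common median its differences were -0.07 and -0.002.

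Folate enzymes and carriers, which take up the carbon unit of serine, had 10 tested genes, and 8 were higher in replicate 3 in both groups, though 0 by 2-fold. Over all tested probe sets 42.8% were higher in both groups and 38.8% lower. The 8 include Fpgs (0.02 and 0.04, log2, FLX and VEH) and Slc25a32, which was close to 0 in VEH. Mthfd2, a mitochondrial methylenetetrahydrofolate dehydrogenase, was higher by 0.85 and 0.88 (log2, FLX and VEH). Slc19a1, the reduced folate carrier of the plasma membrane, was instead lower, with log2 differences of -1.91 and -2.59. Aldh1l2 and Mtfmt, which act on formyl groups in mitochondria, had treatment differences of 0.42 (SE 0.40) and -0.42 (SE 0.33). Aldh1l2 averaged 60.7 in FLX and 47.2 in VEH, so it reached the level of 50 through FLX alone. Nothing is read from its difference.

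In the methionine cycle and transsulfuration, where serine joins homocysteine to form cystathionine, Cbs and Cth stood out. Cbs, which makes cystathionine, read 310, 321 and 787 in FLX and 268, 315 and 820 in VEH. Cth, which cleaves it to cysteine, read 162, 178 and 795 in FLX and 111, 147 and 412 in VEH. They were the 2 of 6 tested genes at least 2-fold higher in replicate 3 in both groups, beside 5.65% of all tested probe sets. Mat2b, the regulatory subunit of methionine adenosyltransferase, and Bhmt, a methyltransferase, had treatment differences of 0.34 (SE 0.20) and 0.42 (SE 0.31).

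Carriers of serine and glycine were mixed. Of 10 tested transporters, 5 were lower in replicate 3 in both groups, 4 of them by at least 2-fold, and 2 were higher (3 after scaling to a common median). Over all tested probe sets 38.8% were lower in both groups, 14.7% by at least 2-fold, and 42.8% higher. The higher transporters were the mitochondrial serine carrier Sfxn1 (0.60 and 1.10, log2, FLX and VEH) and its relative Sfxn3 (0.49 and 1.29). Slc38a3, a glutamine carrier of astrocytes, read 262, 542 and 46.6 in FLX and 406, 482 and 51.6 in VEH. Slc1a5, a neutral amino acid exchanger, had replicate 3 log2 differences of -1.89 and -3.78, the latter resting on a VEH replicate 3 value of 8.62. Slc7a10, the exchanger of D-serine and other small amino acids, was near the detection level at 37.4 to 70.6 on all arrays. The treatment differences of Slc7a10 and Slc1a5 were 0.16 (SE 0.29) and 0.30 (SE 1.18).

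The list of serine breakdown and use held 10 tested genes, and 6 of them were at least 2-fold lower in replicate 3 in both groups and 0 at least 2-fold higher. All 6 belong to lipid synthesis or the Serinc family. Over all tested probe sets 14.7% were at least 2-fold lower in both groups and 5.65% at least 2-fold higher. The listed enzymes that break down serine or D-serine were not among the tested genes. Sars1, the seryl-tRNA synthetase, was higher (0.57 and 0.82, log2, FLX and VEH), and Ddo, an oxidase of D-aspartate, was mixed (0.17 and -0.59). Sptlc1, a subunit of the serine palmitoyltransferase that starts sphingolipid synthesis, read 752, 974 and 307 in FLX and 829, 869 and 168 in VEH. Sptssa, the small subunit of that enzyme, had replicate 3 log2 differences of -1.98 and -2.84. Serinc1, a membrane protein named for serine incorporation, read 23892, 23909 and 8457 in FLX and 20838, 22215 and 4879 in VEH. Its treatment difference was 0.37 (SE 0.73) and that of Sptlc1 was 0.30 (SE 0.77).

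Glycolytic genes around 3-phosphoglycerate, the starting point of the chain, had modest replicate 3 differences, with 0 of 4 past 2-fold. Eno2, the neuronal enolase, was higher by 0.67 and 0.87 and Pgk1, which makes 3-phosphoglycerate, by 0.23 and 0.60 (log2, FLX and VEH). Pgam1, which draws 3-phosphoglycerate toward pyruvate, had a treatment difference of 0.20 (SE 0.23) and Eno2 of 0.15 (SE 0.34).

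The amino acid response, run by ATF4, is a known activator of serine synthesis genes. Its 15 other listed genes had a median treatment difference of -0.28, with 10 negative and 5 positive, beside 57.2% positive over all tested probe sets. Trib3, a pseudokinase induced by this response, read 51.6, 40.8 and 44.0 in FLX and 70.7, 65.4 and 67.1 in VEH. The log2 difference was -0.58 (SE 0.19), with no overlap between the groups. Among all tested probe sets 1.79% had every FLX value below every VEH value and 2.55% had every one above. Trib3 averaged 45.5 in FLX and 67.7 in VEH, so it reached the tested level through VEH alone. It was named for its small p, in a list drawn up with earlier results known, so nothing is read from its difference. It did not pass limma's adjusted threshold (adjusted p = 1.00, and 0.623 to 1.00 over the alternatives). Cebpb, a transcription factor, had -0.58 (SE 0.25), with values of 493, 379 and 313 in FLX and 604, 501 and 647 in VEH. In replicate 3, Nupr1, a stress-induced chromatin protein, had log2 differences of -3.21 and -2.35 (FLX and VEH). Slc7a11, the cystine carrier, had -2.91 and -2.95. Of the 15 genes 4 were at least 2-fold lower in replicate 3 in both groups and 0 at least 2-fold higher, counts that became 3 and 1 after scaling to a common median. Over all tested probe sets, before scaling, 14.7% were at least 2-fold lower in both groups and 5.65% at least 2-fold higher.

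Proteins reported to bind serine racemase formed the last list. Grip1, a PDZ scaffold, read 198, 149 and 760 in FLX and 150, 121 and 896 in VEH, and Dlg4, the postsynaptic scaffold PSD-95, read 192, 145 and 400 in FLX and 148, 160 and 389 in VEH. They were the 2 of 5 tested genes at least 2-fold higher in replicate 3 in both groups, beside 5.65% of all tested probe sets. Pick1 and Cacng2 had treatment differences of 0.18 (SE 0.38) and -0.29 (SE 0.27). Srr itself stood 1.94-fold and 1.39-fold higher on its brightest probe set.

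Markers of other cell types that moved with the replicate 3 arrays are given beside these values. The 15 astrocyte markers were all detected, and their summed intensity was 61144 to 78182 in FLX and 62522 to 67510 in VEH, with replicate 3 the lowest array of both groups. The replicate 3 log2 difference of that sum was -0.20 in FLX and -0.06 in VEH, and after scaling to a common median -0.13 and 0.16. Within the list 6 markers were higher in replicate 3 in both groups (7 after scaling to a common median) and 6 lower. Acsbg1, an acyl-CoA synthetase, was higher by 2.01 and 2.73 and Gfap, the astrocyte filament, by 2.06 and 2.06 (log2, FLX and VEH). Gjb6 and Gja1, the astrocyte connexins, were lower, Gjb6 with log2 differences of -3.71 and -3.99 and Gja1 with -1.91 and -2.40.

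Oligodendrocyte markers had a summed intensity of 25292, 28507 and 67507 in FLX and 24765, 28661 and 66142 in VEH, with all 8 of the named markers detected. The list was split, since 5 markers were higher in replicate 3 in both groups, among them Mbp and Cnp, which make up most of the sum, and 3 were lower. The lower ones were Cldn11 (-2.81 and -2.57, log2, FLX and VEH), Mag (-0.87 and -1.37) and Ugt8a (-0.28 and -0.97). The 13 leptomeningeal markers, all detected, summed to 52417, 84945 and 4433 in FLX and 83655, 83402 and 7559 in VEH, so replicate 3 held the least in both groups. Markers of excitatory neurons summed to 11079 to 19066 in FLX and 10929 to 20057 in VEH, highest on replicate 3, with 6 of 6 detected. Of these, 4 were higher in replicate 3 in both groups and 1, Slc17a7, was lower (-0.48 and -0.76, log2, FLX and VEH). Neurod6 was mixed (0.18 and -0.46). Interneuron markers summed to 18762 to 43579 and 15924 to 33612, also highest on replicate 3, with 7 of 7 detected. In both groups 6 of the 7 were higher and 1 lower (0 lower after scaling to a common median). Of the 5 tested layer 5 markers, 3 (Bcl11b, Fezf2 and Crym) were higher in replicate 3 in both groups and 2 (Pcp4 and Parm1) lower, with medians of 0.63 and 0.76. Their sum, 42604 to 50883 in FLX and 38233 to 44038 in VEH, was lowest on replicate 3, but it is mostly Pcp4 (28338 to 43711 over the arrays), and its replicate 3 difference in VEH turned from -0.17 to 0.06 after scaling to a common median. Of 4 tested pericyte and smooth muscle markers 3 were at least 2-fold lower in both groups and 1, Rgs5, was higher, and their sum was 2018 to 5048 in FLX and 2087 to 8364 in VEH. Both tested choroid plexus markers were at least 2-fold lower in both groups, beside 14.7% of all tested probe sets. Microglia markers were lower in both groups on 6 of 8 (5 after scaling), with medians of -0.35 and -1.27, and endothelial markers on 3 of 4, with medians of -0.47 and -1.67. The part of these cell types in the replicate 3 difference of Phgdh and Psat1 was not tested. The mean log2 difference of 3′ and 5′ control probe sets for Actb and Gapdh, a sign of RNA quality, was 2.20, 2.09 and 2.08 in FLX and 2.33, 2.18 and 2.19 in VEH, so replicate 3 was within 0.01 of replicate 2 in both groups. The genes differed, since on replicate 3 Actb had the highest value of each group (2.32 and 2.56) and Gapdh the lowest (1.83 and 1.83).

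**Figure D4:**
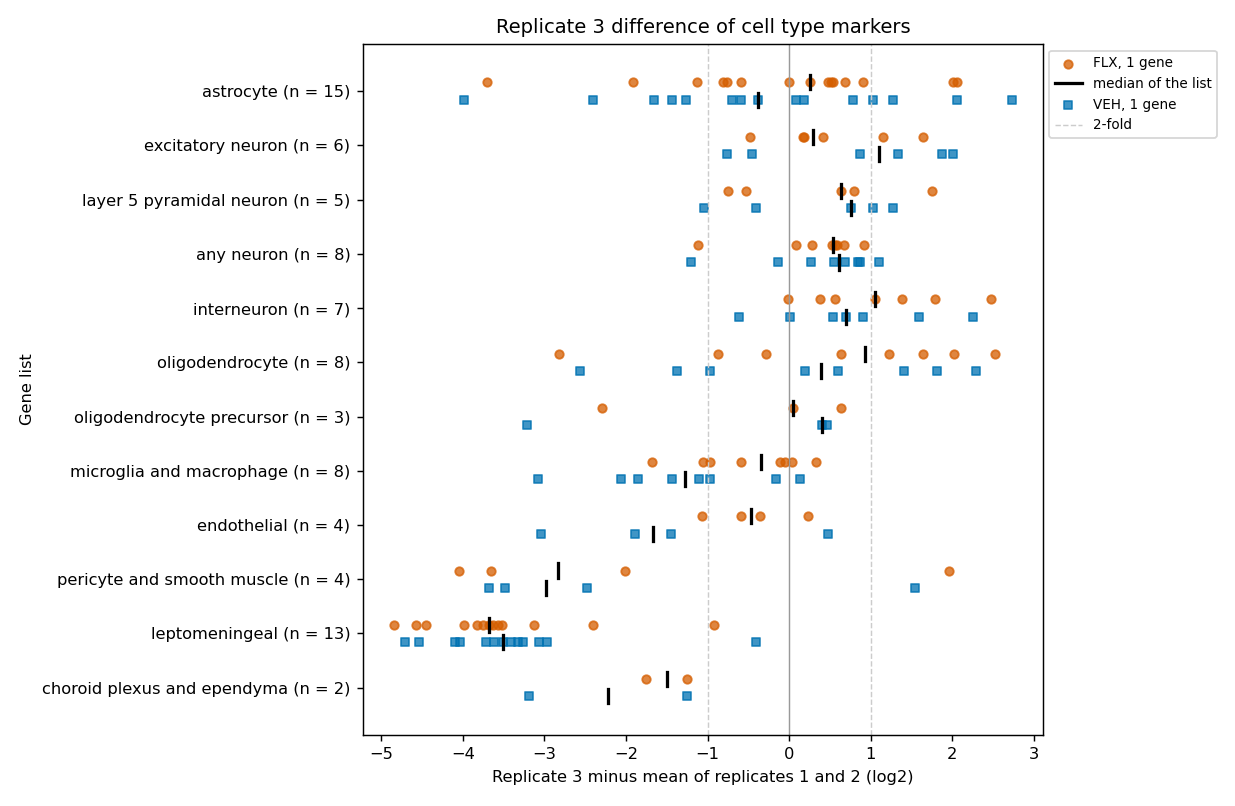
Replicate 3 minus the mean of replicates 1 and 2 on the log2 scale for each detected cell type marker, in FLX (orange circles) and VEH (blue squares), with list medians as black bars and 2-fold as dashed lines. Astrocyte markers spread on both sides of 0 (medians 0.25 and -0.38, FLX and VEH), and leptomeningeal markers centre on -3.68 and -3.51.

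The genes most like each member were sought among 12213 other tested genes by the root mean square difference of centred log2 values over the 6 arrays. Bag4, a co-chaperone, was closest to Phgdh at 0.07, followed by Specc1 and Arf3 at 0.08 and 0.09. Tbr1, a transcription factor of excitatory cortical neurons, was closest to Psat1 at 0.04, followed by Ptbp2 (0.04), a neuronal splicing regulator, and Dtna (0.06). Tbr1 read 1558, 1464 and 4728 in FLX and 1179, 1379 and 3219 in VEH, and like Psat1 was highest on the replicate 3 arrays. Snupn, Sass6 and Rcl1 were closest to Psph at 0.03 to 0.04.

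Cnot10, Fam13c and Poldip3 were closest to Shmt1 at 0.03 to 0.08. Slx4, Hspa9 and Casc3 were closest to Shmt2, at 0.04 to 0.05 each, and Hspa9 encodes a mitochondrial chaperone. Nhlrc1, Phf20l1 and Mtmr4 were closest to Srr at 0.03 to 0.04. No member was among the 3 closest genes of another. For ranks between members, the other member was taken by its brightest probe set alone, whereas all other genes entered by their nearest probe set. These ranks can therefore place a member too far down. On this measure Psat1 was the nearest member to Phgdh, at rank 383 of 12213 genes, and Phgdh was at rank 1258 for Psat1. Shmt2 was at rank 1264 for Shmt1. With 6 arrays, of which 2 stand apart, many genes share a similar profile, so these ranks describe the arrays only.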

How the data were processed

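The authors deposited 1 linear intensity per probe set and array, after GCRMA normalization, per the submitters' processing notes (version not given in the sources used here). Of 45101 probe sets, 64 controls were left out; the platform annotation names 1 gene for 34945, several for 932 and none for 9160. Probe sets with a mean of 50 or more in at least 1 group were tested (22200). FLX and VEH were compared in limma 3.58.1 (R 4.3.3), fitted to log2 intensity with treatment as the only term, two-sided, with Benjamini-Hochberg adjustment over all tested probe sets at 0.05. The fit was tested on simulated data.

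The members and all gene lists were chosen with earlier results of these data known. Every member probe set is given. Other genes are represented by their brightest probe set, except in the search for genes most like a member, which took their nearest. From each list the 2 tested genes with the smallest p and the 2 with the largest replicate 3 difference are named, plus the 3 genes most like each member; other named genes, Gfap, Acsbg1, Gja1 and Gjb6 among them, were picked with their values in view. Replicate numbers are shared between the groups, and deviations from the group means correlated at r = 0.70, 0.84 and 0.87 between arrays of equal number. These values were above the limit of 0.1, so the numbers were taken to pair the arrays. Unlike numbers 1 and 2 reached 0.64 and 0.76, however. Because replicate 3 stands apart in both groups, replicates 1 and 2 correlate whichever is paired with which. The limit therefore could not show pairing, and the results by pair or block rest on the numbers alone. Where labels do not name separate animals, p-values measure the spread between these arrays. Figures were drawn with matplotlib 3.10.9.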

Additional observations from a re-analysis of the deposited data

Results flagged for a closer look

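Psph 1415673_at is singled out because its replicate 3 difference ran in opposite directions in the treatments: the FLX replicate 3 array (1376) lay above both other FLX arrays and the VEH replicate 3 array (832) below both other VEH arrays. The log2 differences were 0.63 in FLX and -0.12 in VEH, 0.76 apart. That gap was not tested, since each side has 1 replicate 3 array, and in VEH the sign turned under scaling to a common median.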

How the results depend on the processing

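The count of probe sets past the threshold between FLX and VEH was 0 under every alternative run: the replicate block (smallest adjusted p = 0.574), no filter on low values, log2 of the value plus 16, arrays scaled to a common median, a robust and trended limma fit, both replicate 3 arrays left out (smallest adjusted p = 0.563), and each array left out in turn (0 to 0). With the replicate block, or paired by number, 0 pathway genes passed as well, and 0 passed when all tested probe sets of a gene were averaged. The count of 6 member probe sets at least 2-fold higher in replicate 3 was also 6 under the pseudocount, the scaling, and replicate 1 or replicate 2 alone as the reference. Of the 16 member treatment differences, 14 changed sign under at least 1 alternative, and each stayed within 1 residual SD of its value with all arrays. That SD is from the unpaired fit and includes the replicate 3 difference, so the limit is wide and shows no stability. Phgdh 1454714_x_at stayed within it while going from -1.11 to 0.86. The alternatives include the unbalanced fits without 1 replicate 3 array. The direction counts of the gene lists and the marker sums under scaling to a common median were added after seeing the data. That scaling moved 18 of the 32 replicate 3 differences of the members by more than the spread of replicates 1 and 2.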

Other observations

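The members and pathway genes are set out here by where the encoded protein resides, an arrangement drawn up after the values were seen and therefore given with no test. Over all tested probe sets 42.8% were higher in replicate 3 in both groups and 38.8% lower. At least 2-fold in both groups, 5.65% were higher and 14.7% lower. Of 20 tested genes whose products sit in the plasma membrane or the endoplasmic reticulum membrane, 17 were lower in replicate 3 in both groups, 13 of them by at least 2-fold, and 0 were higher in both. The medians on the log2 scale were -1.49 in FLX and -2.05 in VEH. Slc1a4, Slc7a10 and Cacng2 were the exceptions. Slc38a2, a neutral amino acid carrier, read 10772, 16880 and 2453 (replicates 1, 2, 3) with fluoxetine and 14761, 16360 and 2347 with vehicle.

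Of 19 tested genes for soluble cytosolic enzymes, Phgdh and Psat1 among them, 13 were higher in replicate 3 in both groups and 1, Bhmt, was lower, with medians of 0.57 and 0.60. Of 13 genes for mitochondrial proteins 9 were higher in both and 1, Gcsh, was lower, with medians of 0.61 and 0.79. The 19 cytosolic genes include the members Phgdh, Psat1, Psph, Shmt1 and Srr, and the 13 mitochondrial genes include Shmt2. Members were chosen on the replicate 3 difference itself, so these counts and medians are not free of that choice and support nothing. The mitochondrial carriers Sfxn1 and Sfxn3, which lie in a membrane but not in that of the endoplasmic reticulum, were higher by 0.60 and 1.10 and by 0.49 and 1.29 (log2, FLX and VEH). Another 17 tested genes, of other or several locations, were left out of these counts, and some were lower although they are not membrane proteins. Eif4ebp1, a translation regulator of the cytosol, had -1.21 and -1.14 and Nupr1 had -3.21 and -2.35. Counted as cytosolic, Eif4ebp1 would have added to the lower genes of that group. After scaling to a common median the membrane counts were the same, 16 cytosolic genes were higher and 0 lower (Bhmt in VEH turned to 0.05), and 11 mitochondrial genes were higher and 1 lower.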
